A study of Mus musculus with 36 samples.

Results

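The 34 genes described here encode the enzymes that build cholesterol and long-chain fatty acids and the proteins that control them. They were chosen by name and found through their gene identifiers among 48795 genes counted by mRNA sequencing of mouse lung pericyte-like cells, cells that resemble the supporting cells wrapped around small vessels. Each of the 34 matched 1 identifier and all 34 passed the filter on low counts. 19 belong to the mevalonate and sterol branch (Acat2 to Dhcr7 in pathway order), 6 to sterol control and transport (Insig1, Insig2, Srebf1, Srebf2, Scap and Stard4) and 9 to the fatty acid branch (Acss2 to Fads2).

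The cells were grown out of lung digests, depleted of CD31, CD45 and CD326 positive cells, selected for PDGFRβ and cultured on gelatin. They were exposed for 24 or 6 h to bronchoalveolar lavage fluid (BALF) from injured lungs, to BALF from uninjured lungs, or to media only, in which phosphate-buffered saline replaced the BALF. Every condition, media only included, held an equal volume of medium with reduced serum, so serum was present in all of them. 3 libraries came from female and 3 from male mice for each combination of treatment and time (n = 6 each, 36 in all). The labels name neither the kind of injury nor the strain or age of the mice, and do not say whether libraries came from separate animals or cultures, so p-values measure only the spread between these samples.

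Cells make cholesterol from acetyl-CoA by way of mevalonate, isoprenoid diphosphates, squalene and lanosterol, and they make fatty acids from the same acetyl-CoA through malonyl-CoA. Transcription of both sets of enzymes is driven by the SREBP factors (genes Srebf1 and Srebf2). When the membrane of the endoplasmic reticulum is rich in sterol, the INSIG proteins hold the escort protein SCAP, and SREBP with it, in that membrane. When sterol is scarce SREBP travels to the Golgi and is cut to its active form, which acts on the genes of the sterol branch, on Insig1 and on its own gene. In the lung, lipid synthesis is best known from alveolar type 2 cells, which make surfactant.

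Promoters are printed because the members moved together in several comparisons below. They come from RefSeq (build GRCm38.p6) and run from 250 bases before to 50 bases after the start that RefSeq gives. That start can differ from the gene coordinates printed with the levels below, as it does for Msmo1. Of the 34 genes, 27 had an entry, and Sqle, Fdft1, Fdps, Stard4, Scd1, Scd2 and Fads1 are named only. 3 motifs were searched on both strands, the sterol regulatory element TCACNCCAC, the CCAAT box and the GC box GGGCGG, and matches may share letters. In the windows shown, 1 pair of matches does, a pair of CCAAT boxes on opposite strands in Fasn. Capitals mark the matches, on whichever strand they lie, so that ATTGG is a CCAAT box and CCGCCC a GC box on the opposite strand. The 6 shown are 4 sterol enzymes lower in injured BALF at 6 h (Hmgcs1 at chr13:119690101-119690400, + strand; Mvk at chr5:114444019-114444318, + strand; Cyp51 at chr5:4104648-4104947, - strand; Msmo1 at chr8:64733529-64733828, - strand), the regulator Insig1 (chr5:28071162-28071461, + strand) and, from the other branch, Fasn (chr11:120824498-120824797, - strand).
Hmgcs1: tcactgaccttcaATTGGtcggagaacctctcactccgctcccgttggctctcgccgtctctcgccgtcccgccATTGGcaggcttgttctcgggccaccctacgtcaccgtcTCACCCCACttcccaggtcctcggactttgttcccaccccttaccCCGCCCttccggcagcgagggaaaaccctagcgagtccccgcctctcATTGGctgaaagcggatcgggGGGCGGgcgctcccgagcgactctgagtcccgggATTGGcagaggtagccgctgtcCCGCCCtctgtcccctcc
Mvk: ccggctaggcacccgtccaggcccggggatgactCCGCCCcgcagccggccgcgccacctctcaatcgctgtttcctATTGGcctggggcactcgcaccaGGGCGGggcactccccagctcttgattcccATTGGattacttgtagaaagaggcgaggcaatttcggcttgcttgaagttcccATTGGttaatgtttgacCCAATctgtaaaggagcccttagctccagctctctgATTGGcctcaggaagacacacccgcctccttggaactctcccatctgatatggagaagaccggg
Cyp51: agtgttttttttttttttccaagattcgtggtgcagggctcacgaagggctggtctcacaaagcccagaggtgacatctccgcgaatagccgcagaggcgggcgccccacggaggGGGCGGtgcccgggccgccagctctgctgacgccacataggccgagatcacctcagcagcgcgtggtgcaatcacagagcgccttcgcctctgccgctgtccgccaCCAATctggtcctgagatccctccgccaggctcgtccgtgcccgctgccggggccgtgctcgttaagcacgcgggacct
Msmo1: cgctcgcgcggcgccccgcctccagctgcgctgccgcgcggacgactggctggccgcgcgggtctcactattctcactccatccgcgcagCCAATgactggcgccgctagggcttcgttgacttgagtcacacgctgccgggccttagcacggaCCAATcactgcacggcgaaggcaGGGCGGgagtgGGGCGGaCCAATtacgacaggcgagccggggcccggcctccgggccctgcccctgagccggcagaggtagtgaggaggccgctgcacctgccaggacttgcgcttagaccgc
Insig1: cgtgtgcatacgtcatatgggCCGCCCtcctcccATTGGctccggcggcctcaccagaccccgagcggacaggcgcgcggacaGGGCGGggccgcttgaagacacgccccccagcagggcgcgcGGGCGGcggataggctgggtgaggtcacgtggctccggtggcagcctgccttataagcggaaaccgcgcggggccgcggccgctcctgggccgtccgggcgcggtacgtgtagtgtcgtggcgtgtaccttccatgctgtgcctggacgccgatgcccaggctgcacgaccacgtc
Fasn: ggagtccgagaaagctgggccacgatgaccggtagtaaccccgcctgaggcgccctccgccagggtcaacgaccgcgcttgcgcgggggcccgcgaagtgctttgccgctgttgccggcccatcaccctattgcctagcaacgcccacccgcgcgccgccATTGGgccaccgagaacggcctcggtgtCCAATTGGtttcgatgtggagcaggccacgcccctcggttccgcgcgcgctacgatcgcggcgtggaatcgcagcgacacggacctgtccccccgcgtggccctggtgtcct
The sterol regulatory element in these letters occurred in 1 of 27 member genes, Hmgcs1, where it begins 137 bases upstream of the start, and in 1.44% of all 27025 genes of the table. Shares are of genes: the 27 members have 35 windows, since 5 of them have more than 1 start, and a gene was counted when any of its windows held the motif. A CCAAT box was present in 22 of 27 members (81.5%), against 41.1% of all genes. Within the sterol branch it was found for 15 of 16 genes (93.8%), and within the fatty acid branch for 3 of 6. The GC box was also found for 22 of 27 members, against 38.2% of all genes, and the printed Fasn window holds none. The shares of all genes were not limited to the 15901 genes tested here, while every member was tested. Such matches describe the letters of the window and do not show binding of a factor.

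Library totals ran from 17134840 to 35991683 counts, of which the 34 genes together held 0.204 to 0.592%. Levels are given as CPM, which are read counts scaled for library size. In 10 of 12 groups of treatment, sex and time the 2 libraries nearest each other were numbers 1 and 2. Counts of called genes are therefore also given with these 2 libraries summed to 1 where that moves them. In female uninjured BALF and female media at 24 h numbers 2 and 3 were nearest instead, so there the sum joins libraries that were not the nearest. In 4 libraries (male uninjured 24 h number 3, female media 24 h number 2, male media 24 h number 3 and male media 6 h number 3) the description numbers begin differently and summed macrophage markers were low, down to 13.3 CPM against up to 82.6 CPM elsewhere. None of the 4 is of injured BALF. The defining markers of lipid-making cell types were near 0: the 7 epithelial and alveolar type 2 markers summed to 0 to 0.666 CPM and the 5 adipocyte markers to 0 to 0.183 CPM, with Lep at 0 in all 36 libraries. The 8 pericyte markers summed to 540 to 1350 CPM and the 6 fibroblast markers to 9668 to 22709 CPM, so both marker sets were read throughout.

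Per kilobase of exon, the median level over all libraries was highest for Scd2 (91.9 CPM per kilobase), Acly (51.2) and Fasn (42.4), and lowest for Fdps (0.700), Acss2 (0.771) and Tm7sf2 (0.951). Some of these levels are uncertain. Fdps, read at 25 counts in its lowest library, shares 98.9% of 1062 transcript bases with Gm3571, Scd1 and Scd2 share 95.5% of 623 bases, Tm7sf2 shares 532 exon bases with Vps51 on the same strand, and Fdft1 overlaps Ctsb by 774 bases on the opposite strand. Acat2 (29675 counts over all libraries) shares 98.7% of 445 bases with Tcp1 (386619 counts) on the opposite strand. It also shares 97.7% of 1477 bases with Acat3 (657 counts). Idi1 (17821 counts) shares 100% of 684 bases with Gm13502 (674 counts). Whether strand was used in counting is not stated.

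**Figure D1:**
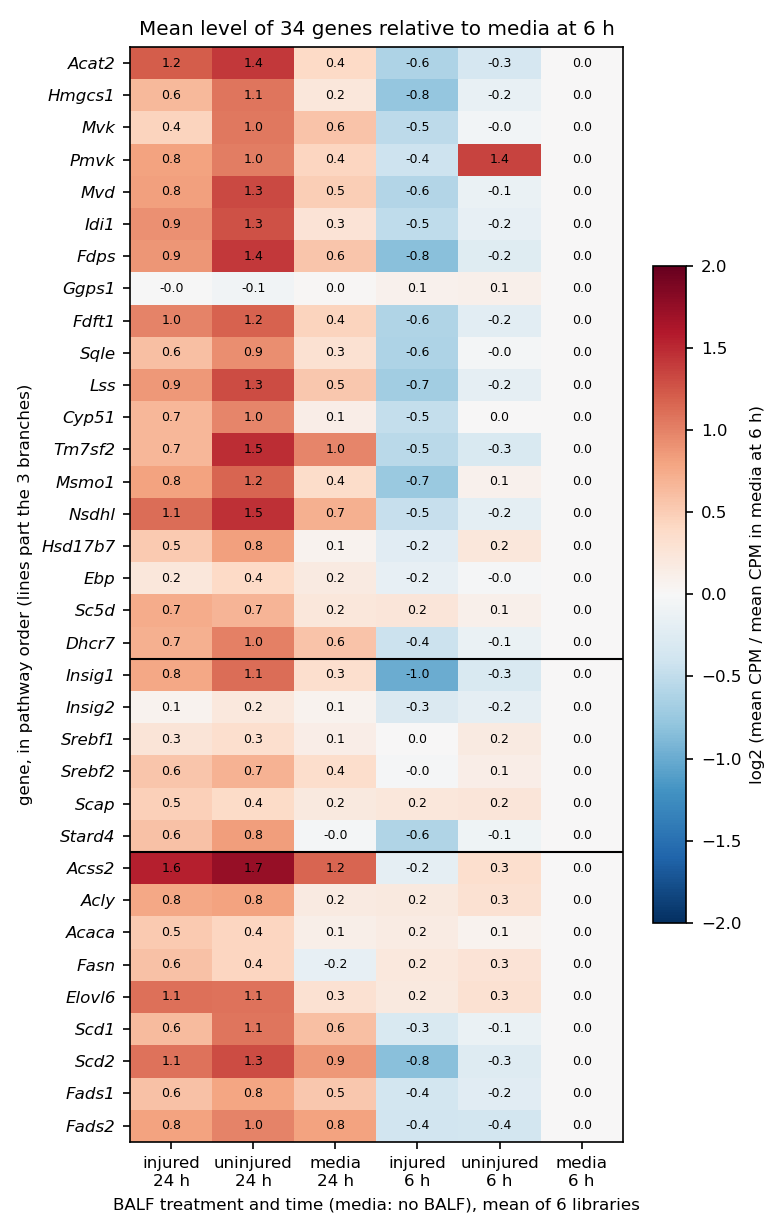
Mean level of each gene in each treatment and time as log2 of its mean CPM over the mean CPM in media at 6 h (n = 6 libraries each). Genes run down in pathway order and black lines part the sterol branch, the control and transport genes and the fatty acid branch; most genes are red in the 24 h columns, the sterol branch is blue in injured BALF at 6 h, and in uninjured BALF at 6 h Pmvk has the deepest red (1.35), with Acss2 next (0.33).

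After 6 h the sterol branch was lower in injured than in uninjured BALF. Of the 34 genes, 10 fell and 0 rose by edgeR's quasi-likelihood test (adjusted p under 0.05 over 15901 genes), while 1.46% of all tested genes fell and 1.97% rose. The 10 were Hmgcs1, Mvk, Pmvk, Fdft1, Sqle, Cyp51 and Msmo1 of the sterol branch, Insig1 and Stard4 of the control genes, and Scd2 of the fatty acid branch. The median log2 difference was -0.45 over the 19 sterol genes, -0.17 over the 6 control genes and -0.10 over the 9 fatty acid genes, against -0.00011 over all tested genes. Of the 7 pericyte, 7 macrophage, 5 mesothelial, 6 endothelial and 6 fibroblast markers tested, 1 passed, the macrophage receptor gene Csf1r, which was lower. In bulk RNA, fewer cells expressing a gene and less RNA per cell cannot be told apart.

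The levels follow in pathway order, each as the lowest, the median and the highest of 6 libraries. Hmgcs1 is the cytosolic HMG-CoA synthase, which follows Acat2 in the branch (ENSMUSG00000093930, chr13:119690379-119708260, + strand). It stood at 62.99, 67.6 and 81.5 CPM in injured BALF, 79.7, 107 and 147 in uninjured BALF and 96.7, 115 and 167 in media. 5 of the 6 injured libraries lay below every uninjured one, and the log2 fold change was -0.62 ± 0.13 (SE; adjusted p = 0.0042). Mvk, mevalonate kinase (ENSMUSG00000041939, chr5:114444269-114460591, + strand), stood at 14.6, 17.0003 and 18.3 CPM in injured BALF, 18.8, 24.7 and 26.8 in uninjured BALF and 21.7, 23.3 and 32.1 in media. No injured library reached an uninjured one, and Mvk fell by a log2 fold change of -0.48 ± 0.13 (adjusted p = 0.039).

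Pmvk, phosphomevalonate kinase, the next enzyme (ENSMUSG00000027952, chr3:89454541-89469013, + strand), had the most negative difference of the 34. It stood at 6.10, 7.80 and 8.74 CPM in injured BALF, 11.01, 30.03 and 37.5 in uninjured BALF and 8.33, 9.09 and 13.5 in media. The injured and uninjured groups did not overlap, and the log2 fold change was -1.76 ± 0.23 (adjusted p = 1.0e-05). The uninjured libraries were split by number: those numbered 1 and 2 held 27.8 to 37.5 CPM in both sexes, and those numbered 3 held 13.4 CPM (female) and 11.0 CPM (male), inside the span of media from 8.33 to 13.5. The cause of this split was not tested.

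Of the enzymes after farnesyl diphosphate, Fdft1 (squalene synthase) stood at 26.9, 33.9 and 35.8 CPM in injured BALF, 32.95, 44.3 and 49.998 in uninjured BALF and 42.6, 48.7 and 59.95 in media. Injured and uninjured libraries overlapped, with a log2 fold change of -0.39 ± 0.11 (adjusted p = 0.044). Sqle, the squalene epoxidase, stood at 44.3, 47.1 and 70.8 CPM in injured BALF, 57.3, 77.6 and 84.2 in uninjured BALF and 63.6, 76.98 and 93.2 in media. The injured group overlapped the uninjured one through its single library at 70.8 CPM, and Sqle fell by -0.57 ± 0.12 (adjusted p = 0.0042).

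Cyp51, which demethylates lanosterol, held 70.5, 85.4 and 91.2 CPM in injured BALF, 83.2, 123 and 153 in uninjured BALF and 96.6, 117 and 131 in media. Its log2 fold change was -0.48 ± 0.12 (adjusted p = 0.019), and the 2 fluids overlapped. Msmo1, the methylsterol monooxygenase that acts after Cyp51 (ENSMUSG00000031604, chr8:64718139-64733792, - strand), held 42.8, 50.8 and 53.03 CPM in injured BALF, 63.6, 89.3 and 117 in uninjured BALF and 71.8, 76.6 and 111 in media. Every injured library lay below every uninjured and every media library, and the log2 fold change against uninjured BALF was -0.83 ± 0.13 (adjusted p = 0.00014).

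Among the control genes, Insig1 (ENSMUSG00000045294, chr5:28071363-28078662, + strand), the membrane anchor whose transcript follows SREBP activity, stood at 27.3, 28.4 and 33.3 CPM in injured BALF, 36.1, 49.98 and 56.9 in uninjured BALF and 44.1, 57.8 and 76.97 in media. The injured libraries lay below all others at 6 h, and the log2 fold change against uninjured BALF was -0.67 ± 0.12 (adjusted p = 0.00097). Stard4, a cytosolic sterol carrier, held 17.8, 22.3 and 27.9 CPM in injured BALF, 25.4, 33.3 and 41.1 in uninjured BALF and 30.4, 34.6 and 38.1 in media. Its log2 fold change was -0.52 ± 0.11 (adjusted p = 0.0037), with overlap between the 2 fluids. The transcription factor genes did not pass the test: Srebf1 held 69.5, 72.7 and 77.8 CPM in injured BALF, 72.7, 81.8 and 95.3 in uninjured BALF and 55.4, 76.2 and 79.5 in media. Srebf2 held 107, 121 and 148 CPM in injured BALF, 111, 137 and 171 in uninjured BALF and 97.9, 129 and 145 in media.

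In the fatty acid branch Scd2, a stearoyl-CoA desaturase, was the 1 gene of 9 that fell. It held 173, 213 and 243 CPM in injured BALF, 238, 306 and 388 in uninjured BALF and 318, 371 and 436 in media, and its log2 fold change was -0.59 ± 0.16 (adjusted p = 0.027). Its highest injured library lay just above its lowest uninjured one. The paralog Scd1 held 89.7, 93.4 and 110.1 CPM in injured BALF, 100.05, 108 and 118 in uninjured BALF and 105, 117 and 135 in media and did not pass the test. Neither did the enzymes that make palmitate. Acly, which releases acetyl-CoA from citrate, held 241, 254 and 270.01 CPM in injured BALF, 239.9, 277 and 297 in uninjured BALF and 198, 218 and 252 in media. Fasn, the fatty acid synthase, held 378, 458 and 546 CPM in injured BALF, 335, 513 and 578 in uninjured BALF and 174, 440.2 and 498 in media. The injured and uninjured ranges of both overlapped over most of their length. Of the remaining members, Fdps stood at 1.16, 1.53 and 1.89 CPM in injured BALF, 1.66, 2.14 and 3.12 in uninjured BALF and 1.69, 2.37 and 4.93 in media, and did not pass.

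**Figure D2:**
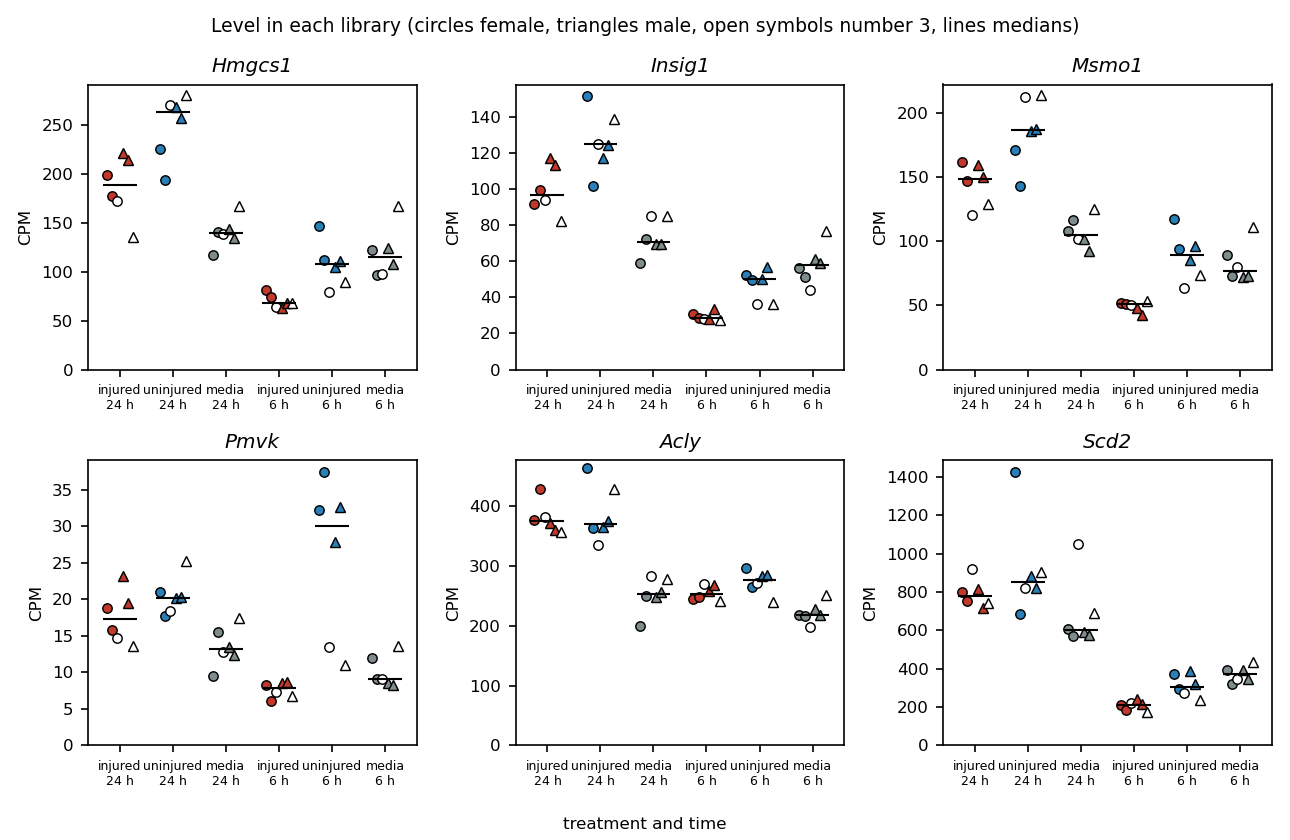
CPM of 6 genes in each library, by treatment and time on the horizontal axis, with circles for female and triangles for male libraries, open symbols for libraries numbered 3 and a line at the median of 6. Hmgcs1, Insig1 and Msmo1 are lowest in injured BALF at 6 h and highest in uninjured BALF at 24 h; the 4 filled Pmvk symbols of uninjured BALF at 6 h stand apart from the 2 open ones; Acly overlaps between the fluids at both times; Scd2 has 1 library at 1425 CPM.

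The same-numbered injured and uninjured libraries deviated together at 6 h, so the differences can be read pair by pair. Over the 34 genes the median log2 difference of the 4 pairs numbered 1 and 2 was -0.27 to -0.43, and that of the 2 pairs numbered 3 was -0.11 (female) and -0.14 (male). For the 19 sterol genes these medians were -0.46 to -0.61 in the pairs numbered 1 and 2, and -0.18 and -0.21 in the pairs numbered 3. Hmgcs1, Mvk, Pmvk, Fdft1, Sqle, Cyp51, Msmo1, Insig1 and Scd2 were lower in injured BALF in 6 of 6 pairs and Stard4 in 5 of 6. With number within sex as a block, Fdft1 missed the threshold (adjusted p = 0.053) and Hsd17b7 passed it (0.041), so the count was again 10. With libraries 1 and 2 summed, only Pmvk passed, among 105 genes of all tested. Without female injured number 2, female uninjured number 1, male uninjured number 1 or male uninjured number 2, each left out alone, 6 members passed. The calls of Fdft1 and Mvk each ended without any of 10 of the libraries, that of Scd2 without any of 7 and that of Cyp51 without any of 4.

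Both fluids were also set against media at 6 h, 2 comparisons that share the media libraries. In injured BALF 16 of 34 genes fell and 1 rose, where 11.4% of all tested genes fell and 13.9% rose. In uninjured BALF 1 fell and 3 rose (background 7.82% down and 10.6% up). These were 2.9% and 8.8% of the members, both below the shares of all tested genes. In injured BALF the genes that fell against media were 11 of 19 sterol genes, Insig1, Stard4, Scd2, Fads1 and Fads2. Summing libraries 1 and 2 left 12 members lower and 1 higher in injured BALF. Insig1 had the most negative of these log2 fold changes, -0.97 ± 0.12 (adjusted p = 1.1e-06), and the same difference in uninjured BALF, -0.30 ± 0.12, did not pass (adjusted p = 0.09).

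Step by step against media at 6 h, the log2 fold changes in injured BALF were -0.61 ± 0.16 for Acat2, the thiolase that joins 2 acetyl-CoA, -0.77 ± 0.13 for Hmgcs1, -0.52 ± 0.13 for Mvk, -0.56 ± 0.16 for Mvd, the diphosphomevalonate decarboxylase, and -0.83 ± 0.26 for Fdps, the farnesyl diphosphate synthase. From squalene on they were -0.60 ± 0.11 for Fdft1, -0.61 ± 0.12 for Sqle, -0.67 ± 0.16 for Lss, the lanosterol synthase, -0.48 ± 0.12 for Cyp51, -0.74 ± 0.13 for Msmo1 and -0.46 ± 0.13 for Nsdhl, a sterol dehydrogenase. All 11 passed, at adjusted p of 7.7e-05 or 6.8e-05 for Msmo1 and Hmgcs1 and up to 0.02 for Fdps. Leaving out 1 library ended the call of Fdps (adjusted p = 0.14) and leaving out 1 ended that of Mvd (0.066). Of the 4 desaturases of the fatty acid branch 3 fell, at -0.84 ± 0.16 for Scd2, -0.36 ± 0.10 for Fads1 and -0.38 ± 0.12 for Fads2, and Scd1 (-0.30 ± 0.15) did not pass. Acly (0.20 ± 0.08) and Acaca, the acetyl-CoA carboxylase (0.16 ± 0.07), did not pass.

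In uninjured BALF at 6 h Pmvk rose by 1.35 ± 0.22 over media (adjusted p = 8.9e-05), Acly by 0.30 ± 0.08 and Scap, the SREBP escort, by 0.24 ± 0.07. Fads2, a desaturase of polyunsaturated fatty acids, fell, at -0.36 ± 0.12. Scap was also the 1 gene that rose in injured BALF, by 0.23 ± 0.07. Its levels were 67.7, 72.8 and 86.7 CPM in injured BALF, 67.1, 75.4 and 82.3 in uninjured BALF and 61.8, 64.3 and 66.2 in media, so both fluids lay wholly above media. With libraries 1 and 2 summed, only Pmvk of the 4 passed in uninjured BALF, and without female uninjured 6 h number 3 the count was 2. In uninjured BALF the call of Fads2 ended without any of 8 libraries and that of Scap without any of 3.

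Markers of several cell types moved in these comparisons. In injured BALF at 6 h 3 of 7 pericyte, 1 of 6 fibroblast and 1 of 6 endothelial markers tested were lower than in media, and 0 of 7 macrophage and 0 of 5 mesothelial markers passed. The 8 pericyte markers summed to 596 to 1028 CPM in injured BALF against 775 to 1350 in media, and the 6 fibroblast markers to 9824 to 18581 CPM in injured BALF against 13590.4 to 22533 in media. In uninjured BALF at 6 h 1 pericyte and 1 endothelial marker were lower than in media and 1 macrophage marker was higher. Their part in the changes of the members was not tested.

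**Figure D3:**
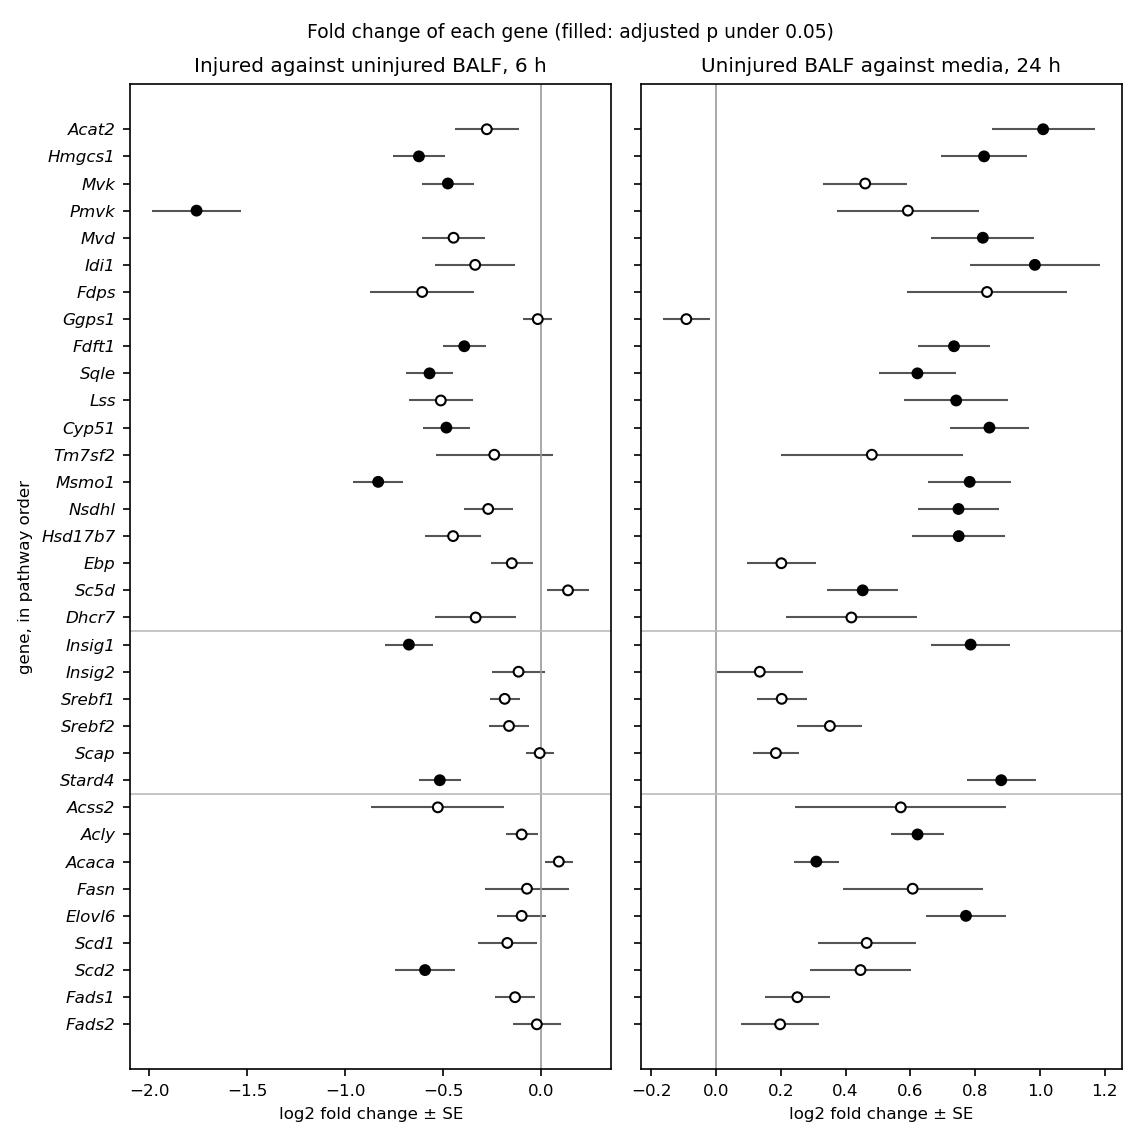
Log2 fold change of each of the 34 genes with its standard error, for injured against uninjured BALF at 6 h (left) and uninjured BALF against media at 24 h (right), filled where the adjusted p was under 0.05. On the left 32 of 34 points lie below 0 and Pmvk lies farthest; on the right 33 of 34 lie above 0, with Ggps1 the exception.

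By 24 h the members stood higher in uninjured BALF than in media. 17 of the 34 rose and 0 fell, in a comparison where 0.516% of all tested genes rose, and the 17 made up 20.7% of the 82 genes that rose in all. Of the sterol branch 12 of 19 rose, of the control genes 2 of 6 (Insig1 and Stard4) and of the fatty acid branch 3 of 9 (Acly, Elovl6 and Acaca). The median log2 fold change was 0.74 over the sterol branch, 0.28 over the control genes and 0.47 over the fatty acid branch, against -0.0040 over all tested genes.

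Hmgcs1 at 24 h held 194, 263 and 280.3 CPM in uninjured BALF, against 117, 139 and 167 in media. The 2 groups did not overlap, at a log2 fold change of 0.83 ± 0.13 (adjusted p = 0.00088). Acat2 had the largest fold change of the 34, 1.01 ± 0.16, and its 6 uninjured libraries (43.7 to 76.8 CPM) also lay above all 6 media libraries (15.2 to 40.2 CPM). Idi1, the isopentenyl diphosphate isomerase, rose by 0.98 ± 0.20 and Mvd by 0.82 ± 0.16. Fdps and Mvk did not pass: Fdps held 4.67, 7.13 and 10.04 CPM in uninjured BALF and 2.73, 3.58 and 6.16 in media, and Mvk held 37.6, 51.2 and 65.8 in uninjured BALF and 27.2, 34.8 and 51.3 in media.

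Further along, Fdft1 held 91.7, 109.9 and 134 CPM in uninjured BALF and 58.8, 69.1 and 76.5 in media, without overlap (0.73 ± 0.11, adjusted p = 0.00053). Sqle held 112, 149.9 and 175 CPM in uninjured BALF and 83.8, 91.7 and 115 in media, with overlap (0.62 ± 0.12). Cyp51 held 187, 236 and 256 CPM in uninjured BALF and 119.7, 128 and 145 in media, without overlap (0.84 ± 0.12, adjusted p = 0.00028). Lss (0.74 ± 0.16), Msmo1 (0.78 ± 0.13), Nsdhl (0.75 ± 0.12), Hsd17b7, a keto-sterol reductase (0.75 ± 0.14), and Sc5d, a sterol desaturase (0.45 ± 0.11), rose too. Stard4 had the lowest p of the 34, with 52.01, 63.8 and 66.9 CPM in uninjured BALF and 21.95, 36.8 and 38.8 in media (0.88 ± 0.11, adjusted p = 3.0e-05). Insig1 held 102, 125 and 152 CPM in uninjured BALF and 58.9, 70.9 and 85.3 in media (0.79 ± 0.12).

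In the fatty acid branch Acly at 24 h held 335, 370.4 and 464 CPM in uninjured BALF, against 200.2, 253 and 284 in media, without overlap (0.62 ± 0.08, adjusted p = 7.9e-05). Elovl6, an elongase of saturated chains, rose by 0.77 ± 0.12 and Acaca by 0.31 ± 0.07. Fasn held 305, 561 and 657 CPM in uninjured BALF and 262, 362 and 429 in media and did not pass. The desaturase genes did not pass either: Scd1 held 165, 226 and 389.7 CPM in uninjured BALF and 151, 179.7 and 210.3 in media, and Scd2 685, 853 and 1425 in uninjured BALF and 569, 599 and 1050.3 in media. Srebf2 (0.35 ± 0.10) did not pass without the block (adjusted p = 0.11).

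With libraries 1 and 2 summed, 1 member (Stard4) passed, among 5 genes of all tested. Both groups in which numbers 1 and 2 were not the nearest, female uninjured BALF and female media at 24 h, stand in this comparison. Without the 4 libraries of other description numbers, 3 of which stand in this comparison, 13 passed: Idi1, Sqle, Hsd17b7, Sc5d and Acaca did not, and Mvk did. Of the same markers of other cell types and of pericytes, 0 passed in either direction here. With 0.516% of all tested genes higher and 0.352% lower, that count was likely in any case and cannot tell whether cell types shifted. The macrophage markers summed to 13.9 to 82.6 CPM in uninjured BALF and 13.3 to 54.7 in media. Their part in the rise of the members was not tested.

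Injured BALF at 24 h was likewise above media, with 16 of 34 genes higher and 0 lower (background 11.5% up and 12.2% down). This comparison shares its media libraries with that of uninjured BALF. Side by side, log2 fold changes over media in injured and in uninjured BALF were 0.59 and 0.62 for Acly, 0.79 and 0.77 for Elovl6, 0.81 and 1.01 for Acat2, 0.41 and 0.83 for Hmgcs1, and 0.44 and 0.79 for Insig1. Fasn (0.76 ± 0.22, adjusted p = 0.011) and Scap (0.28 ± 0.07) passed in injured BALF and did not in uninjured BALF, although neither differed between the 2 fluids in the direct test below. With libraries 1 and 2 summed, 8 of the 16 passed. Markers moved here too: 4 of 7 pericyte markers, 1 of 6 endothelial and 1 of 6 fibroblast markers were lower in injured BALF than in media, and 2 of 7 macrophage markers and 1 fibroblast marker were higher. The pericyte markers summed to 540 to 803 CPM in injured BALF, below the 919 to 1294 CPM of media, and the macrophage markers to 53.6 to 70.9 CPM in injured BALF against 13.3 to 54.7 in media. Their part in the rise of the members was not tested.

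The injured fluid set directly against the uninjured one at 24 h gave 1 member, Mvk, which was lower (background 2.04% down and 2.38% up). Mvk held 29.02, 32.9 and 37.5 CPM in injured BALF and 37.6, 51.2 and 65.8 in uninjured BALF. Every injured library lay below every uninjured one, at -0.59 ± 0.13 (adjusted p = 0.0062). Hmgcs1 held 135, 188 and 221 CPM in injured BALF and 194, 263 and 280.3 in uninjured BALF (-0.41 ± 0.13, adjusted p = 0.069), which did not pass. The median log2 difference was -0.33 over the sterol branch and -0.18 over the fatty acid branch. Pmvk, split at 6 h, held 13.7, 17.3 and 23.1 CPM in injured BALF and 17.7, 20.2 and 25.3 in uninjured BALF. Of the markers, Mcam (pericyte) was lower in injured BALF, at -1.19 ± 0.32 (adjusted p = 0.028), and Dcn (fibroblast) higher, at 1.37 ± 0.25 (adjusted p = 0.0012), and their part in the result for Mvk was not tested. The count was 3 without female injured 24 h number 3, 6 without female uninjured 24 h number 2, and 0 with libraries 1 and 2 summed.

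Most members stood higher at 24 h than at 6 h in both fluids. In injured BALF 32 of 34 genes were higher at 24 h (background 12.8% up), in uninjured BALF 29 (15.2%) and in media 12 (3.51%), and 0 were lower in any of them (background 14.2%, 15.5% and 3.33% down). The median log2 change of the sterol branch was 1.22 in injured BALF, 1.13 in uninjured BALF and 0.41 in media. That of the fatty acid branch was 0.93 in injured BALF, 1.02 in uninjured BALF and 0.54 in media. With libraries 1 and 2 summed the counts were 30, 29 and 0 in the same order. Of the markers, 1 pericyte marker (Notch3) was higher at 24 h in all 3 treatments. 2 pericyte markers were lower and 1 fibroblast marker higher at 24 h in injured BALF, 1 pericyte and 1 macrophage marker were lower in uninjured BALF, and 1 macrophage marker was lower in media. The part of these shifts in the change of the members was not tested.

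In injured BALF Insig1 held 82.02, 96.7 and 117 CPM at 24 h and 27.3, 28.4 and 33.3 at 6 h, a log2 change of 1.76 ± 0.13 (adjusted p = 1.1e-10). Scd2 had the largest change in injured BALF, with 715, 777 and 922 CPM at 24 h and 173, 213 and 243 at 6 h (1.93 ± 0.16, adjusted p = 2.1e-09). Fdft1 held 85.5, 101 and 114 CPM at 24 h and 26.9, 33.9 and 35.8 at 6 h (1.60 ± 0.11, adjusted p = 1.0e-10). In each of the 3 genes the lowest library at 24 h lay above the highest at 6 h. Of the 34 genes this held for 31 in injured BALF, 26 in uninjured BALF and 4 in media. The share of all tested genes for which it held was not counted.

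The 2 genes that did not pass in injured BALF were Ggps1, which makes the geranylgeranyl chain used on proteins, and Fasn. Ggps1 ranged from 30.5 to 39.6 CPM in injured BALF at 24 h and from 32.8 to 40.4 at 6 h, and it passed in none of the 9 comparisons of treatment or time. Fasn held 337, 665 and 719 CPM in injured BALF at 24 h and 378, 458 and 546 at 6 h. Acss2, the acetyl-CoA synthetase that uses acetate, rose by 1.74 ± 0.34 in injured BALF, 1.40 ± 0.33 in uninjured BALF and 1.15 ± 0.34 in media. Acly rose by 0.57 ± 0.08 in injured BALF and 0.51 ± 0.08 in uninjured BALF. Srebf2 rose in injured BALF (0.59 ± 0.10), in uninjured BALF (0.57 ± 0.10) and in media (0.35 ± 0.10). Srebf1 rose in injured BALF (0.26 ± 0.08, adjusted p = 0.014) but did not pass in uninjured BALF or media. Insig2 rose in injured BALF (0.37 ± 0.13) and uninjured BALF (0.39 ± 0.13), and its call in injured BALF ended without any of 10 libraries. Scap rose in injured BALF (0.25 ± 0.07) and did not pass in uninjured BALF or media. Its change over time did not pass a test of the difference between injured and uninjured BALF or between uninjured BALF and media, and the difference between injured BALF and media was not tested. In the fatty acid branch Elovl6 (0.90 ± 0.12), Acaca (0.37 ± 0.07), Scd1 (0.93 ± 0.15), Fads1 (0.95 ± 0.10) and Fads2 (1.19 ± 0.12) rose in injured BALF, and all 5 rose in uninjured BALF. The 5 members that did not pass in uninjured BALF were Pmvk, Ggps1, Srebf1, Scap and Fasn.

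The remaining enzymes of the sterol branch followed the same course, except that Pmvk did not pass in uninjured BALF. In injured BALF the log2 changes at 24 h against 6 h were 1.83 ± 0.16 for Acat2, 1.41 ± 0.16 for Mvd, 1.42 ± 0.21 for Idi1, 1.72 ± 0.26 for Fdps, 1.55 ± 0.17 for Lss and 1.57 ± 0.13 for Nsdhl. Toward the end of the branch they were 1.21 ± 0.29 for Tm7sf2, a sterol reductase, 0.75 ± 0.14 for Hsd17b7, 0.39 ± 0.11 for Ebp, a sterol isomerase, 0.50 ± 0.11 for Sc5d and 1.18 ± 0.21 for Dhcr7, the reductase that completes cholesterol. Hmgcs1 (1.42 ± 0.13), Mvk (0.97 ± 0.13), Pmvk (1.21 ± 0.22), Sqle (1.22 ± 0.12), Cyp51 (1.14 ± 0.12), Msmo1 (1.54 ± 0.13) and Stard4 (1.19 ± 0.11) rose as well. Ebp and Sc5d thus had the smallest called changes of the branch in injured BALF.

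In media the 12 genes higher at 24 h were Mvk, Mvd, Fdft1, Lss, Tm7sf2 and Nsdhl, with Srebf2, and Acss2, Scd1, Scd2, Fads1 and Fads2 of the fatty acid branch. Fads2 held the lowest p, at 0.80 ± 0.12 (adjusted p = 0.00054). Scd1, Scd2, Fads1 and Fads2 were the 4 members whose media libraries did not overlap between the times, and the share of all tested genes was not counted. The media count rests on few libraries: it was 5 without the 4 libraries of other description numbers, and 7, 4, 7 and 5 without female 24 h number 3, male 24 h number 3, male 6 h number 1 and male 6 h number 2.

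Whether a treatment effect differed between 24 h and 6 h was tested directly, which is also the test of whether the change over time differed between 2 treatments. The effect of uninjured BALF over media was larger at 24 h for 12 of 34 genes and smaller for 0 (background 0.692% and 1.27%). They were 10 sterol genes (Acat2, Hmgcs1, Mvd, Idi1, Fdft1, Sqle, Lss, Cyp51, Msmo1 and Nsdhl), Insig1 and Stard4, and 0 of the 9 fatty acid genes. The difference of the 2 log2 fold changes was 1.34 ± 0.23 for Acat2, 1.08 ± 0.17 for Insig1, 0.97 ± 0.15 for Stard4 (adjusted p = 0.0008) and 0.70 ± 0.18 for Msmo1 (adjusted p = 0.038). Among fatty acid genes DESeq2 called Fads1, Fads2 and Scd2 as well, so the absence of that branch holds for edgeR alone. The count was 7 without male uninjured 24 h number 3, female media 6 h number 1, male media 24 h number 2 or male media 6 h number 3, 9 without the 4 libraries of other description numbers, and 0 with libraries 1 and 2 summed.

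The effect of injured against uninjured BALF differed between the times for 1 member, Pmvk, by 1.54 ± 0.31 (adjusted p = 0.032; background 0.151% up and 0.0880% down). That call ended when any of 9 libraries was left out and with libraries 1 and 2 summed. For the other members the effects at 24 h and at 6 h were not shown to differ. The effect of injured against uninjured BALF was not shown to differ between female and male libraries for any member at 24 h or at 6 h, by edgeR or DESeq2 (0 of 34 each). Of all genes, edgeR called 0 at each time, with 150 genes at 24 h and 113 at 6 h at an unadjusted p under 0.05.

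Set side by side, the 2 branches were read as each library's median over the branch of log2 CPM relative to the mean of media at 6 h. The sterol branch lay at -0.65 to -0.43 (median -0.52) in injured BALF at 6 h, -0.37 to 0.12 (median -0.036) in uninjured BALF and -0.19 to 0.42 (median -0.072) in media. The 6 injured libraries lay below the other 12. The fatty acid branch lay at -0.39 to -0.062 (median -0.20) in injured BALF, -0.10 to 0.06 (median -0.0066) in uninjured BALF and -0.17 to 0.15 (median -0.023) in media, with overlap between all 3. At 24 h the sterol branch lay at 0.44 to 1.01 (median 0.74) in injured BALF, 0.72 to 1.42 (median 1.05) in uninjured BALF and 0.15 to 0.59 (median 0.36) in media. The fatty acid branch lay at 0.69 to 0.90 (median 0.81) in injured BALF, 0.65 to 1.2005 (median 0.87) in uninjured BALF and 0.31 to 0.77 (median 0.33) in media. The 2 fluids were thus closer to each other in the fatty acid branch at 24 h than in the sterol branch, a description without a test. Within the fatty acid branch the desaturases Scd2, Fads1 and Fads2 fell with the sterol genes in injured BALF against media at 6 h. Of these only Scd2 also passed against uninjured BALF. In uninjured BALF against media at 6 h Fads2 fell too (-0.36 ± 0.12), and Fads1 (-0.23 ± 0.10) did not pass. At the other time, 24 h, Acly and Elovl6 rose against media in both fluids.

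**Figure D4:**
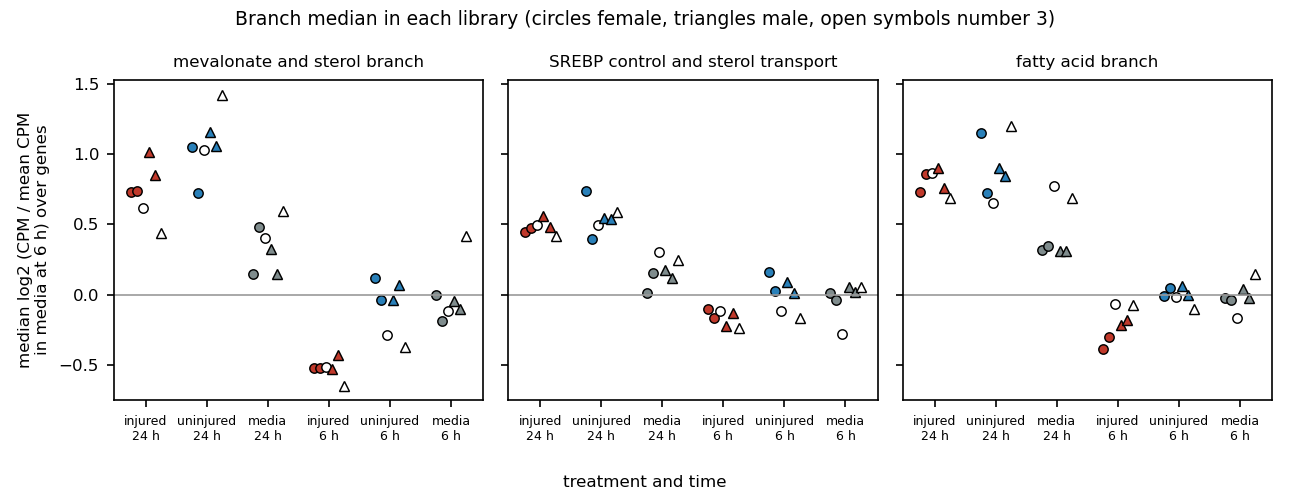
Median over the genes of each branch of log2 CPM relative to the mean in media at 6 h, for every library, with circles for female and triangles for male libraries and open symbols for libraries numbered 3. In the sterol panel the 6 injured 6 h libraries lie between -0.65 and -0.43, below all uninjured and media libraries of that time; in the fatty acid panel they lie between -0.39 and -0.06 and overlap them.

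Neighbouring genes of the pathway that are not members were counted too. In injured against uninjured BALF at 6 h, 0 of 14 genes that use isoprenoids (prenyl transferases and makers of dolichol and ubiquinone), 0 of 9 genes of SREBP processing and sterol-regulated degradation, 1 of 13 genes of sterol handling and 0 of 17 genes of fatty acid supply and elongation passed. At 24 h the counts were 0, 0, 1 and 1. Of all tested genes 1.46% fell and 1.97% rose at 6 h, and 2.04% fell and 2.38% rose at 24 h. Counts near 0 were therefore likely in lists of this size. The 1 sterol handling gene at both times was Ch25h, which adds a hydroxyl group to cholesterol. It held 77.7, 122 and 164 CPM in injured BALF at 6 h, 22.6, 38.1 and 63.9 in uninjured BALF and 4.54, 19.7 and 26.8 in media. The log2 fold change of injured against uninjured BALF was 1.53 ± 0.33 at 6 h (adjusted p = 0.0044) and 1.70 ± 0.33 at 24 h (adjusted p = 0.0019). Ch25h also rose in uninjured BALF against media at 6 h, by 1.29 ± 0.33 (adjusted p = 0.0059). Any link between Ch25h and the members was not tested.

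At 24 h Ch25h held 50.4, 54.3 and 57.9 CPM in injured BALF, 8.18, 14.9 and 35.3 in uninjured BALF and 3.55, 9.20 and 11.5 in media. Acsl4, an acyl-CoA synthetase that prefers polyunsaturated chains, rose at 24 h in injured against uninjured BALF by 0.43 ± 0.09, and in uninjured BALF against media by 0.64 ± 0.09. Against media, Hsd17b12, a reductase of fatty acid elongation, rose by 0.37 ± 0.08 and Abca1, the sterol exporter, fell by a log2 fold change of -0.88 (SE 0.14, adjusted p = 0.00097). In that comparison 0 of 14 isoprenoid genes and 0 of 9 processing genes passed.

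Over time in injured BALF, of the fatty acid supply genes Slc25a1, the mitochondrial citrate carrier, rose by 0.56 ± 0.08 and Tecr, an elongation reductase, by 0.69 ± 0.11. 0 of 14 isoprenoid genes rose and 4 fell, in a comparison where 12.8% of all tested genes rose and 14.2% fell.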

How the data were processed

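RNA of mouse lung pericyte-like cells was sequenced from stranded mRNA libraries, per the labels' protocols. The authors deposited whole-number counts per gene for 36 libraries, whose columns were matched to samples by title. STAR 2.5.2b, RSEM 1.2.31, DESeq2 and build GRCm38 are named per the submitters' processing notes, and their roles are not given in the sources used here, so rounding of RSEM estimates, which divide ambiguous reads among genes, cannot be told from plain counting. Identifiers, version removed, were matched to GENCODE M21 of GRCm38 (48435 of 48795, 99.3%). The unmatched held at most 0.011% of a library's counts.

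From the counts, edgeR 4.0.16 in R 4.3.3 was fitted (quasi-likelihood test, TMM scaling, factors 0.874 to 1.092, expression filter leaving 15901 genes) to the means of 12 groups (treatment by sex by time, 24 residual degrees of freedom), with a common biological coefficient of variation of 22.5%. Effects of treatment or time average the female and the male effect equally. Genes with a Benjamini-Hochberg adjusted p under 0.05 over all 15901 are called, and values after ± are standard errors, the fold change over the square root of F. CPM values use the TMM-scaled totals. Listed were the levels of 10 core members and of members called between the fluids, and fold changes of other members where called or, uncalled, at an adjusted p under 0.2. Of each other list up to 3 called genes of lowest p were named, and 1 such gene is not reported here. The members and lists were chosen with earlier results of these data known. Near copies were found with BLAST 2.17.0 among GENCODE transcripts.

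The script was tested on simulated data with known changes. Same-numbered libraries deviated together between injured and uninjured BALF at 6 h (correlations 0.46 to 0.76 in 6 of 6 pairs within sex). This pairing comes from the data, and the labels state none. In the other 5 sets of 2 treatments at 1 time, 2 or 3 of 6 pairs had a correlation over 0.1. Female pairs of injured and uninjured BALF at 24 h were at -0.60 (number 1), 0.66 (number 2) and -0.50 (number 3). Those of uninjured BALF and media at 24 h were at -0.53, 0.06 and -0.52 in the same order. Alternatives were RLE scaling, DESeq2 1.42.0, no low-count filter, a replicate block, libraries 1 and 2 summed, leaving out the 4 libraries of other description numbers, and leaving out each library.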

Additional observations from a re-analysis of the deposited data

Results flagged for a closer look

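Of 96 sets of 6 libraries (16 genes in 6 treatment and time combinations), 12 held a library far from the other 5, where chance alone flags about 1 in 20. 9 of the 12 are in libraries numbered 3. Male media 6 h number 3, one of the libraries with other description numbers, was highest for Mvk (32.1 CPM, others up to 24.5) and Fdps (4.93 CPM, others up to 2.74). Male injured 6 h number 3 was lowest for Fdft1 (26.9 CPM, others from 32.7) and Cyp51 (70.5 CPM, others from 84.5). Sqle was highest in female injured 6 h number 3 (70.8 CPM, others up to 49.5) and lowest in male uninjured 6 h number 3 (57.3 CPM, others from 75.5). Female media 6 h number 3 was lowest for Srebf1 (55.4 CPM, others from 74.1) and Fasn (174 CPM, others from 379.7). Female injured 24 h number 2 was highest for Acly (428.5 CPM, others up to 382). Female uninjured 24 h number 1 was lowest for Fasn (305 CPM, others from 542) and highest for Scd2 (1425 CPM, others up to 907). Female media 24 h number 3 was highest for Scd2 (1050.3 CPM, others up to 689).

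A treatment effect differed between 24 h and 6 h in a direct test for Pmvk in injured against uninjured BALF (1.54 on the log2 scale) and for 12 genes in uninjured BALF against media: Acat2 (1.34), Idi1 (1.15), Insig1 (1.08), Hmgcs1 (0.97), Stard4 (0.97), Fdft1 (0.94), Nsdhl (0.94), Mvd (0.93), Lss (0.90), Cyp51 (0.84), Msmo1 (0.70) and Sqle (0.67).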

How the results depend on the processing

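Under RLE scaling, DESeq2, no low-count filter and the replicate block every count of members stayed within 1.5 times the value given, except that DESeq2 called 2 members in injured against uninjured BALF at 24 h (Mvk and Hmgcs1). No called member changed sign under any alternative. With libraries 1 and 2 summed, the counts were 1 for injured against uninjured BALF at 6 h and 0 at 24 h. Against media they were 13 for injured BALF at 6 h and 8 at 24 h, and 1 for uninjured BALF at each time. They were 0 for 24 against 6 h in media and 0 for both differences of effect between the times. Summing leaves fewer libraries, and what numbers 1 and 2 share was not tested. In female uninjured BALF and female media at 24 h it joined libraries that were not the nearest of their group. Without the 4 libraries of other description numbers the media time count was 5. Leaving out 1 library at a time gave 6 to 12 members for injured against uninjured BALF at 6 h and 1 to 6 at 24 h, 15 to 18 for injured BALF against media at 6 h and 13 to 19 at 24 h, 2 to 5 for uninjured BALF against media at 6 h and 14 to 17 at 24 h, 31 to 32 over time in injured BALF, 28 to 29 in uninjured BALF and 4 to 16 in media, 0 to 1 and 7 to 15 for the differences of effect, and 0 to 0 for both sex differences.

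With the replicate block the counts of all 13 comparisons stayed within 1.5 times. Where the pairing was met (injured against uninjured BALF at 6 h) the count was 10, with the 2 exchanged calls given in the report. In the other comparisons not every same-numbered pair had a correlation over 0.1. There the pairs of 1 sex did so in 3 of 3 for female injured BALF and media at 6 h (0.45 to 0.63), female uninjured BALF and media at 6 h (0.47 to 0.66) and male uninjured BALF and media at 24 h (0.41 to 0.64), with no label behind it. In these comparisons the block gave 1 member for injured against uninjured BALF at 24 h, 18 and 17 for injured BALF against media at 6 and 24 h, 4 and 18 for uninjured BALF against media, 31, 30 and 14 over time in injured BALF, uninjured BALF and media (the 30 being 29 higher and 1 lower at 24 h, Ggps1 at -0.16, adjusted p = 0.048), 1 and 12 for the differences of effect and 0 for both sex differences. Besides Fdft1, it ended the call of Insig2 over time in injured BALF (adjusted p = 0.053). Female uninjured 24 h libraries numbered 1 and 3 deviated against their same-numbered injured and media libraries (correlations -0.60 to -0.50). Block counts that use these libraries therefore do not rest on a pairing. A member that did not pass is not shown to be unchanged.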
